A study of Mus musculus with 6 samples.

Results

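The 10 genes described here encode ligands and receptors of the interleukin 1 (IL1) family, with 2 natural inhibitors of that family and the cytokine TSLP. They were taken by name from the gene tables of 6 RNA sequencing libraries, and all 10 were found among the 49671 genes listed and passed the filter on low counts, which left 15608 genes for testing. The source was orthotopic tumours of FC1199, a line of mouse pancreatic cancer cells, placed in C57BL/6J hosts at 8 weeks of age and harvested after 4 weeks of growth, at 12 weeks. Every host, in both groups, carried the Rosa-mTmG reporter, in which Cre recombinase switches a cell from the red protein Tomato to GFP, together with Fabp4-Cre, a Cre gene under the Fabp4 promoter. Cells bearing Podoplanin on their surface were sorted by colour into a GFP fraction, which the labels call stellate cell-derived cancer-associated fibroblasts (CAFs), and a Tomato fraction, labelled as CAFs of non-stellate origin, with 3 libraries of each. The labels do not say which libraries share a mouse, whether mice were pooled, or whether replicates came from separate mice.

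IL1A and IL1B are the agonists of the IL1 receptor, which is formed by IL1R1 together with the shared partner chain IL1RAP. IL1RN, the IL1 receptor antagonist, binds IL1R1 without starting a signal. IL33 is a nuclear cytokine of stromal and barrier cells that acts, when released, through IL1RL1 (ST2) and the same partner chain, while IL18 acts through IL18R1 and IL18RAP and is neutralised in solution by IL18BP. TSLP is not a member of the family by structure and signals through CRLF2 and IL7R. In pancreatic cancer, IL1 is known as a signal that drives an inflammatory state in fibroblasts.

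Libraries held between 33378377 and 42154933 counts. Among the marker lists, fibroblast genes had the largest sums in both fractions. The 11 fibroblast markers summed to 129836 to 144520 CPM (counts scaled to a common library size, with TMM factors) in GFP and to 63566 to 96598 CPM in Tomato. Col3a1 and Col1a1 gave most of this, with means of 67576 and 33972.5 CPM in GFP, so sums of different lists do not compare cell numbers. Of the 11 markers 6 were higher in GFP and none lower (edgeR, adjusted p under 0.05). Markers of other cells were present and differed between the fractions. The 16 macrophage and monocyte markers were all lower in GFP (edgeR, adjusted p under 0.05) and summed to 158 to 251 CPM in GFP and 1129 to 2832 CPM in Tomato. Of the 12 mesothelial markers 11 were lower, with sums of 189 to 230 CPM in GFP and 1662 to 1913 CPM in Tomato. Of the 9 neutrophil markers 8 were tested and 6 were lower, with sums of 15.9 to 38.0 CPM against 51.3 to 73.3 CPM. The neutrophil surface gene Ly6g was at 0 in 5 libraries and at 0.136 CPM in Tomato replicate 3. Beside these counts, 15.7% of all genes tested were called lower in GFP and 13.1% higher. In RNA from sorted bulk fractions, a smaller number of cells of a type and less RNA per cell cannot be told apart.

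Between the fractions, 5 of the 10 genes were lower in GFP and none was higher (edgeR quasi-likelihood test, Benjamini-Hochberg adjusted p under 0.05). Among all genes tested 28.9% were called in either direction, 13.1% as higher and 15.7% as lower. At least 8-fold lower and called were 3 of the 10, as were 2.42% of all genes, and 4 of the 10 were at least 2-fold lower and called, as were 7.76% of all genes. GFP and Tomato values were fully separated for 7 of the 10 genes, beside 48.6% of all genes. The 5 genes were both IL1 agonists, Il1a and Il1b, the antagonist Il1rn, the cytokine Il18 and its inhibitor Il18bp. The receptor chains Il1r1, Il1rap and Il1rl1, the alarmin Il33 and Tslp did not pass. The median log2 fold change (GFP over Tomato) of the 10 genes was -0.62, beside 0.00 over all genes tested. In the plot of CPM by library, the fractions stand far apart for Il1a, Il1b and Il1rn and lie close together for Il33 and Il1r1.

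**Figure D1:**
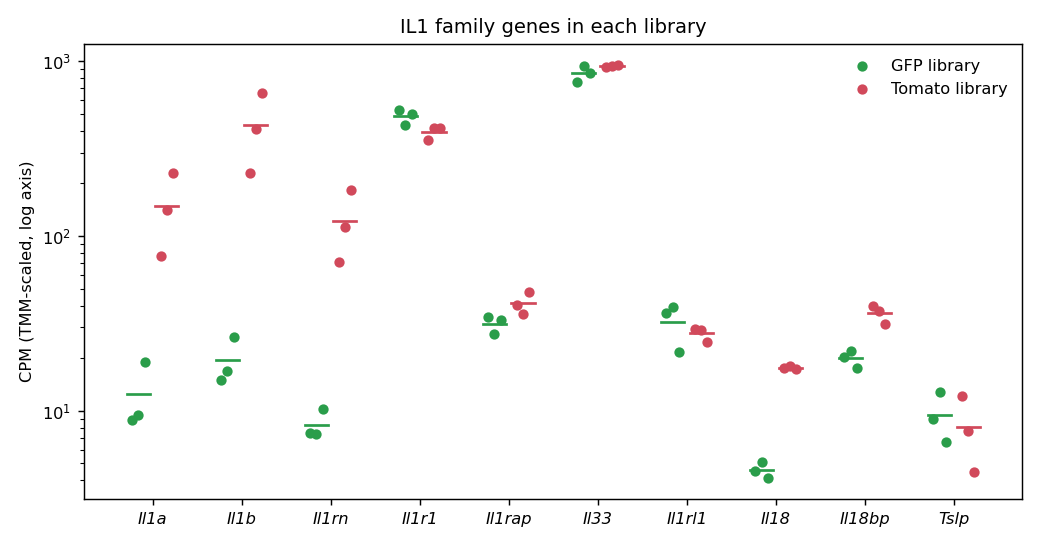
CPM of each of the 10 genes (log axis) in the 3 GFP libraries (green points) and the 3 Tomato libraries (red points), with the mean as a bar. Il1a, Il1b and Il1rn reach at most 26.4 CPM in a GFP library and have at least 71.5 CPM in each Tomato library, while the fractions overlap for Il33, Il1rl1 and Tslp.

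Il1b, Il1rn and Il1a, in this order, had the lowest log2 fold changes of the 10 genes. Il1b (chromosome 2, 129364570 to 129371139, minus strand, GRCm38), the secreted agonist that needs cleavage by an inflammasome, had 15.1, 16.9 and 26.4 CPM in GFP replicates 1, 2 and 3 and 228, 408 and 661 CPM in Tomato replicates 1, 2 and 3. The lowest Tomato library was far above the highest GFP library. The means were 19.5 ± 6.08 CPM in GFP and 432 ± 217 CPM in Tomato (SD, n = 3 each), a log2 fold change of -4.47 ± 0.44 (SE; edgeR adjusted p = 0.000853), or 22.2-fold higher in Tomato. In the order of all tested genes from the lowest log2 fold change, Il1b stood at place 65 of 15608.

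Il1a (chromosome 2, 129299610 to 129309972, minus strand), the agonist that is active without cleavage and is also held at the cell surface, lies beside Il1b on the chromosome and followed it from library to library. It had 8.86, 9.43 and 19.0 CPM in GFP replicates 1 to 3 and 77, 141 and 228 CPM in Tomato replicates 1 to 3. As for Il1b, replicate 3 was the highest of each fraction and no libraries overlapped. Its log2 fold change was -3.58 ± 0.48 (SE; edgeR adjusted p = 0.00265), 11.9-fold higher in Tomato. A gene on the opposite strand, Gm14023, covers 11.2% of the exon bases of Il1a, and the 2 strand columns together held 1.15 to 1.21 times the count used here.

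Il1rn (chromosome 2, 24336853 to 24351494, plus strand), the antagonist, fell with the agonists. Its 3 GFP libraries had 7.43, 7.37 and 10.2 CPM and its 3 Tomato libraries 71.5, 112 and 183 CPM, again with replicate 3 highest in each fraction. This gave a log2 fold change of -3.87 ± 0.36 (SE; edgeR adjusted p = 0.000704), 14.6-fold higher in Tomato. Within a library, the level of Il1rn per kilobase of exon was a small part of the summed level of Il1a and Il1b: 0.108, 0.0978 and 0.0785 of it in GFP replicates 1 to 3, and 0.0814, 0.0710 and 0.0714 in Tomato replicates 1 to 3. The 2 fractions overlapped in this ratio, although within each of the 3 same-numbered pairs the GFP value was the higher. The difference was 0.34 on the log2 scale (GFP minus Tomato; exact two-sided permutation test without pairing, p = 0.2). With 3 libraries against 3 the smallest p possible is 0.1, so this test could not have passed 0.05 and does not settle whether the balance of antagonist to agonists differed.

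These 3 genes fell together, so the bases before their start sites are shown, from the RefSeq start windows of GRCm38.p6 (160 bases up to the base before the start, 5′ to 3′ on the strand of the gene, with 2 of the 3 starts that RefSeq lists for Il1rn). Capitals mark matches on either strand, lying wholly inside the stretch shown, to TATAAA (the TATA box), TGANTCA (AP-1), GAGGAA (PU.1), TTGCNNAA (C/EBP) or GGG and TTCC with any 3 bases between them (NF-kB).
Il1a, chr2:129309973-129310132, minus strand: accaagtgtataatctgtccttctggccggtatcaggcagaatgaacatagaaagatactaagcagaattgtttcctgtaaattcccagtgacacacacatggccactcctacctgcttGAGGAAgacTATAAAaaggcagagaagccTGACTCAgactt
Il1b, chr2:129371140-129371299, minus strand: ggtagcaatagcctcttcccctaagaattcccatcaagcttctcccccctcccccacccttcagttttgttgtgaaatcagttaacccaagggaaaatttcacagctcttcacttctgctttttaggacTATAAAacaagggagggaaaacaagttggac
Il1rn, first start, chr2:24336700-24336859, plus strand: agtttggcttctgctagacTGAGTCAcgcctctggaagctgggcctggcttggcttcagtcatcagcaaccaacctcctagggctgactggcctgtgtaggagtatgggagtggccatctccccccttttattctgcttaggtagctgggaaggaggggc
Il1rn, second start, chr2:24345131-24345290, plus strand: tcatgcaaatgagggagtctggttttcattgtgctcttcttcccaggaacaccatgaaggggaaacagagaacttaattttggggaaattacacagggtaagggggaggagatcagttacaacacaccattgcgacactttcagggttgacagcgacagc

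The agonists share a TATAAA match whose first base lies 32 bases before the start in Il1a and 31 bases before it in Il1b, while neither Il1rn stretch holds one. In Il1a the PU.1 and AP-1 matches flank the TATA box, and the AP-1 match of Il1rn lies 141 bases before its first start. Each of the 3 Il1rn windows of 300 bases (250 before the start and 50 after it) holds 1 NF-kB match, which crosses the end of the stretch shown or lies outside it. The windows of the other Il1rn starts, after the first, overlap and share the same match. Its first base lies 51 bases before the third start, whose stretch is not shown. The window of that start also holds a TATAAA match on the opposite strand, 14 bases after the start. The Il1a and Il1b windows hold no NF-kB match. Over all 32851 RefSeq windows of this length, 13.6% held TATAAA, 5.56% the NF-kB letters, 7.81% the AP-1 letters, 10.8% the C/EBP letters and 28.3% the PU.1 letters. RefSeq windows were matched for 9 of the 10 genes, and these matches are letters in a window, not measured sites.

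From Tomato replicate 1 to 3 the 3 genes rose in the same order as the macrophage markers. The sums of neutrophil (51.3, 52.5 and 73.3 CPM), dendritic (49.2, 60.0 and 74.5 CPM) and epithelial and cancer cell markers (159, 171 and 219 CPM) rose too. Those of fibroblast (96598, 78935 and 63566 CPM), T cell, lymphatic and endothelial markers fell, so the order was not particular to macrophage markers. The lymphatic list shares Pdpn, the gene of the sort marker Podoplanin, with the fibroblast list, so these 2 sums are not independent. The 16 macrophage and monocyte markers summed to 1129, 1884 and 2832 CPM in Tomato replicates 1, 2 and 3 and to 158, 246 and 251 CPM in the GFP replicates. Il1b came to 20.2%, 21.7% and 23.3% of that sum in Tomato replicates 1 to 3, and to 9.57%, 6.86% and 10.5% in GFP replicates 1 to 3. Its share of the sum was thus lower in GFP. The single markers had log2 fold changes from -4.47 to -0.64 (median -3.30), a range whose lower end equals the -4.47 of Il1b. Il1a came to 6.82%, 7.48% and 8.06% of the sum in Tomato and to 5.61%, 3.84% and 7.59% in GFP, where the fractions overlap. Il1rn came to 6.33%, 5.95% and 6.45% in Tomato and to 4.71%, 3.0% and 4.07% in GFP, which do not overlap. These shares were chosen after the values were seen, no test was made of them, and the part of the macrophage markers in the 3 differences was not tested.

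**Figure D2:**
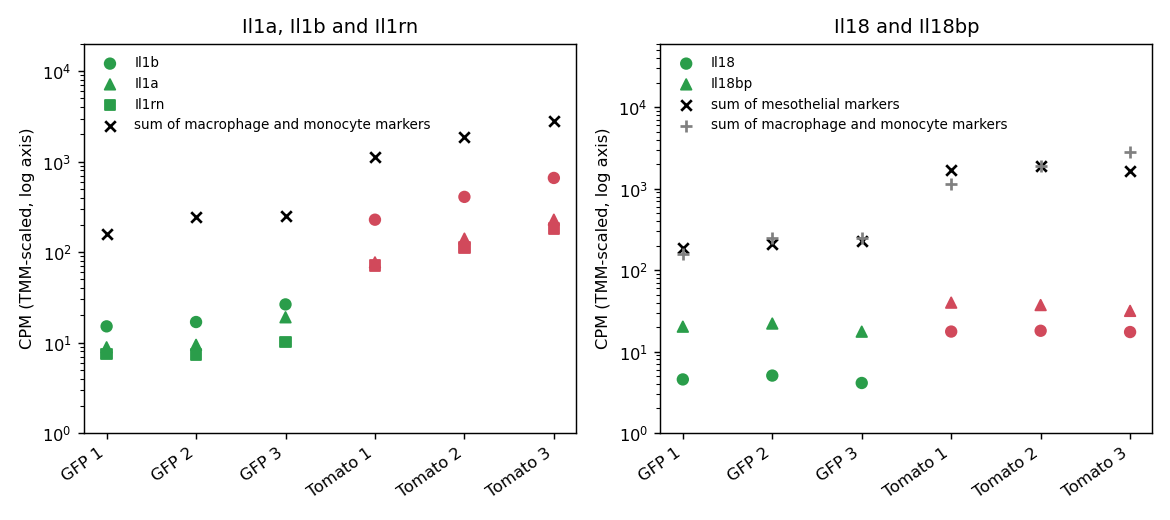
CPM per library (log axis) of Il1b, Il1a and Il1rn beside the sum of 16 macrophage and monocyte markers (left), and of Il18 and Il18bp beside the sum of 12 mesothelial markers and the same macrophage sum (right), with GFP in green and Tomato in red. Il1a, Il1b and Il1rn are spread among the Tomato libraries like the macrophage sum, whereas Il18 stays between 17.4 and 18.0 CPM.

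Correlation over the 6 libraries placed Il1b and Il1rn among the 3 genes most like each other, while Il1a was not among those of either. This is a description only, since any gene that differs strongly between the fractions correlates with any other. Among 8911 protein-coding genes with a mean of at least 10 CPM, the genes most like Il1b included Clec4n, a lectin receptor of myeloid cells, and Il1rn itself (Pearson r of log2 CPM 0.999 for both). Those most like Il1rn were Clec4n, Il1b and Dcstamp, a fusion gene of osteoclasts and macrophages. Those most like Il1a were Dapp1, the cytokine gene Osm, and Plek, the pleckstrin gene of blood cells. Genes with a correlation above 0.95 numbered 439 with Il1a, 490 with Il1b and 484 with Il1rn.

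Il18 and Il18bp were lower in GFP by less and with less spread. Il18 (chromosome 9, 50554827 to 50581840, plus strand), a cytokine stored as a precursor in epithelial cells and macrophages, had 4.55, 5.07 and 4.11 CPM in GFP and 17.6, 18.0 and 17.4 CPM in Tomato. The Tomato libraries lay within 1 CPM of each other, unlike for the IL1 agonists. On the log2 scale the difference was -1.95 ± 0.12 (SE; edgeR adjusted p = 4.69e-05), 3.86-fold higher in Tomato. The mesothelial markers, which summed to 1707, 1913 and 1662 CPM in the same Tomato libraries and to 189, 211 and 230 CPM in GFP, also differed little among the Tomato libraries. As a share of that sum, chosen after the values were seen and not tested, Il18 came to 2.40%, 2.40% and 1.79% in GFP and to 1.03%, 0.942% and 1.05% in Tomato. This share was the higher in GFP, while the single mesothelial markers had log2 fold changes from -5.46 to -0.03 (median -4.09). Their part in the Il18 difference, and that of the macrophage markers, was not tested. The genes most like Il18 over the 6 libraries were Dync2li1, Cmbl and Hist1h1c.

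Il18bp (chromosome 7, 102014885 to 102018690, minus strand), the secreted decoy that binds IL18, had 20.2, 22.1 and 17.6 CPM in GFP and 39.9, 37.3 and 31.6 CPM in Tomato. No libraries overlapped, and in Tomato replicate 3 was the lowest, opposite to the IL1 agonists. On the log2 scale it differed by -0.86 ± 0.13 (SE; edgeR adjusted p = 0.00207), 1.82-fold higher in Tomato. The ratio of the decoy transcript to that of its ligand was higher in each GFP library than in any Tomato library. Per kilobase of exon, Il18bp stood at 1.51, 1.48 and 1.45 times the level of Il18 in GFP replicates 1 to 3. In Tomato replicates 1 to 3 it stood at 0.772, 0.705 and 0.620 times. The difference was 1.09 on the log2 scale (GFP minus Tomato; exact two-sided permutation test, p = 0.1, the smallest p possible with 3 libraries against 3), and it was 0.911 with a single strand column. The genes most like Il18bp over the 6 libraries were Herc6, an interferon-induced gene, Ephx1 and Arl4d.

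Neither chain of the signalling IL1 receptor passed the test. Il1r1 (chromosome 1, 40225080 to 40317257, plus strand), the signalling receptor, had 527, 432 and 497 CPM in GFP and 357, 416 and 415 CPM in Tomato. Every GFP library was above every Tomato library, as for 23.4% of all genes tested, yet the gap between GFP replicate 2 and Tomato replicate 2 was small. Its log2 fold change was 0.29 ± 0.12 (SE; 95% interval 0.03 to 0.56) and did not pass (edgeR adjusted p = 0.0851). Scaled by library size alone, it was 0.12 (edgeR adjusted p = 0.476), in a fit where the median over all genes was -0.16. The genes most like Il1r1 over the libraries were Slc35d1, Orai2 and Vps8.

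Il1rap (chromosome 16, 26581704 to 26730117, plus strand), the partner chain shared by the receptors of IL1 and IL33, had 34.2, 27.5 and 33.1 CPM in GFP and 40.1, 36.0 and 48.0 CPM in Tomato. All GFP libraries were below all Tomato libraries, as for 25.2% of all genes tested. The log2 fold change of -0.39 ± 0.13 (SE) just missed the threshold (edgeR adjusted p = 0.0564). When libraries of equal number were treated as pairs it passed, at -0.38 (adjusted p = 0.00921), in a fit that called 41.0% of all genes, and it also passed under 5 of the other alternatives. The opposite-strand gene Gm20319 covers 4.86% of the exon bases of Il1rap, and its own count was 0 in every library.

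**Figure D3:**
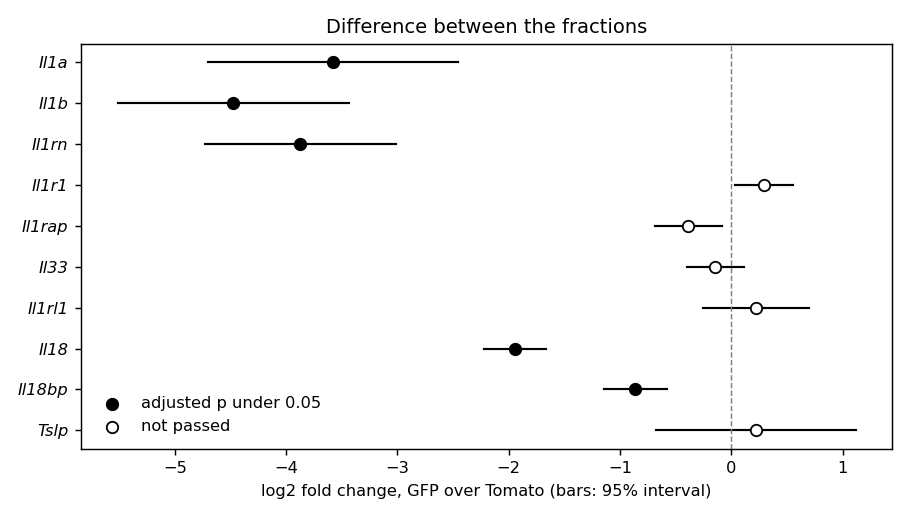
Log2 fold change of each of the 10 genes, GFP over Tomato, with its 95% interval as a bar. Filled points passed an adjusted p of 0.05: Il1a, Il1b, Il1rn, Il18 and Il18bp, all lower in GFP, while the intervals of Il33, Il1rl1 and Tslp include 0.

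Il33 (chromosome 19, 29925114 to 29960718, plus strand) was the most abundant of the 10 genes in both fractions. It had 760, 935 and 862 CPM in GFP and 928, 944 and 957 CPM in Tomato, and GFP replicate 2 lay within the Tomato range. The difference on the log2 scale was -0.15 ± 0.11 (SE; 95% interval -0.40 to 0.11; edgeR adjusted p = 0.346). When transcript length and GC content were corrected for, it was 0.11 (edgeR adjusted p = 0.414), in a fit where the median over all genes was 0.12. Per kilobase of exon, and averaged over all libraries, its level exceeded that of 99.1% of the genes tested. The genes most like Il33 over the 6 libraries, Fam45a, Prkra and Trmt11, are not cytokine genes.

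Il1rl1 (chromosome 1, 40429570 to 40465415, plus strand) encodes ST2, the receptor of IL33, in a membrane form and a soluble decoy form that gene counts do not separate. It had 36.1, 39.2 and 21.6 CPM in GFP and 29.4, 29.1 and 24.7 CPM in Tomato. GFP replicate 3 was the lowest of the 6 libraries and the other GFP libraries were the highest. The difference on the log2 scale was 0.22 ± 0.21 (SE; 95% interval -0.26 to 0.70; edgeR adjusted p = 0.444), and without GFP replicate 3 it was 0.44 and passed (adjusted p = 0.0465). Over the 18 alternatives it ran from 0.05 to 0.44. Mast cells, regulatory T cells and innate lymphoid cells are known for ST2. The 8 mast cell markers summed to 1.58 to 1.70 CPM in GFP and 2.17 to 4.12 CPM in Tomato, mostly from Kit, with Fcer1a at 0 in every library. The 10 T cell, NK cell and innate lymphoid markers summed to 82.5 to 94.5 CPM in GFP and 61.9 to 71.7 CPM in Tomato. Nearly all of that sum was Rora, which was higher in GFP (0.41, edgeR adjusted p = 0.0193), while Gata3, at most 1.19 CPM, was lower (-1.93, edgeR adjusted p = 0.00828) and Foxp3 reached at most 0.179 CPM. The part of these markers in the Il1rl1 values was not tested. The genes most like Il1rl1 were Aig1, Cwc25 and Cdk6.

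Tslp (chromosome 18, 32815383 to 32819797, plus strand), an epithelial and stromal cytokine, varied more within the fractions than between them. It had 9.02, 12.7 and 6.59 CPM in GFP and 12.2, 7.70 and 4.45 CPM in Tomato, with the lowest value of each fraction in replicate 3. Its log2 fold change was 0.22 ± 0.38 (SE; 95% interval -0.68 to 1.12; edgeR adjusted p = 0.691). Its sign turned when GFP replicate 2 was left out (-0.05, adjusted p = 0.935) and when Tomato replicate 3 was left out (-0.08, adjusted p = 0.875). It was larger without Tomato replicate 1 (0.63, adjusted p = 0.185), without GFP replicate 3 (0.42, adjusted p = 0.463) and once length and GC were corrected for (0.59, adjusted p = 0.319, or 0.68 and 0.0516 in the paired fit), and smaller when scaled by library size alone (0.07, adjusted p = 0.901). The median over all genes was itself 0.12 with the length and GC correction, paired or not, and -0.16 with scaling by library size alone. The genes most like Tslp over the libraries were Cyp2j9, Socs1, an inhibitor of cytokine signalling, and Ly6a.

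Ranked per kilobase of exon, the levels of the 10 genes took a different order in each fraction. In GFP, Il33 (295 ± 30.5 CPM per kilobase; SD, n = 3) stood above Il1r1 (76.3 ± 7.67), and both stood clear of all others. The middle of the order, from Il1b (10.2 ± 3.19) through Tslp, Il18bp, Il1a and Il1rl1 to Il18 (4.44 ± 0.466), consisted of neighbours whose libraries overlapped, and Il1rap (2.78 ± 0.318) and Il1rn (1.51 ± 0.292) were the lowest. In Tomato, Il33 (327 ± 5.02) and Il1b (227 ± 114) led with overlapping libraries, followed by Il1a (75.3 ± 38.5) and Il1r1 (62.2 ± 5.33), which also overlapped. Below them came Il1rn (22.1 ± 10.2), Il18 (17.1 ± 0.313) and Il18bp (12.0 ± 1.40), and Tslp, Il1rl1 and Il1rap shared the end with overlapping libraries. On this scale the agonist transcripts stood below the receptor Il1r1 in every GFP library, and Il1b stood above it in every Tomato library. The Tomato order depends on the scale. In CPM, Il1b was below Il1r1 in Tomato replicates 1 (228 against 357) and 2 (408 against 416), and above it in Tomato replicate 3 (661 against 415).

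Of 12 other IL1 family ligands and receptors, 7 passed the filter on low counts, of which 5 were lower in GFP and 2 higher, where 15.7% of all genes were lower and 13.1% higher. The filter kept genes with enough counts in 1 fraction alone, and some of the 5, such as Il18r1, passed it only through Tomato, so the count and the median of the 7 (-3.28) are partly set by the filter. Il1r2 (5.06, 6.36 and 4.48 CPM in GFP against 34.6, 46.8 and 72.6 CPM in Tomato), the decoy receptor that takes up IL1 without a signal, was lower (-3.28 ± 0.29, SE; edgeR adjusted p = 0.00049). Il18r1, the ligand-binding receptor of IL18, had 0.188, 0.298 and 0.789 CPM in GFP and 8.07, 10.5 and 9.72 CPM in Tomato (-4.46 ± 0.40, SE; edgeR adjusted p = 0.000299). Its partner Il18rap, named after its values were seen, was at 0.858 ± 0.332 and 5.18 ± 2.25 CPM (-2.59, edgeR adjusted p = 0.00395), so both chains of the IL18 receptor were low in GFP.

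Of the 2 higher genes, Il1rl2, the receptor of the IL36 cytokines, had 122, 98.6 and 103 CPM in GFP and 77.7, 82.4 and 76.2 CPM in Tomato (0.45 ± 0.10, SE; edgeR adjusted p = 0.0133). Scaling by library size alone ended that call (adjusted p = 0.0599). Sigirr, an inhibitory receptor of the family, was at 2.10 ± 0.267 and 0.995 ± 0.343 CPM (1.08, edgeR adjusted p = 0.0258). That call needed 3 of the libraries: the adjusted p was 0.0772 with GFP replicate 1 left out, 0.0780 with GFP replicate 2 left out and 0.0864 with Tomato replicate 2 left out. Il1r2, Il1r1, Il1rl2, Il1rl1, Il18r1 and Il18rap lie in this order on 1 stretch of chromosome 1, from base 40074079 to base 40551705. Along it, Il1r2, Il18r1 and Il18rap were lower in GFP, Il1rl2 was higher, and Il1r1 and Il1rl1 did not pass. Of the receptor chains of TSLP, Il7r was lower (0.284 ± 0.0394 against 4.72 ± 1.97 CPM, log2 fold change -4.04, edgeR adjusted p = 0.000256). Il7r had only 10, 11 and 9 reads in GFP replicates 1 to 3 and passed the filter through Tomato, with 139, 154 and 256 reads. Its fold thus rests on few GFP reads and is partly set by the filter. Crlf2 did not pass (12.6 ± 1.78 against 15.6 ± 1.02 CPM, -0.31, edgeR adjusted p = 0.105).

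Genes that mature and release IL1 and IL18 were in part lower in GFP. Of 17 such genes 15 were tested, and 9 were lower and none higher, beside 15.7% lower and 13.1% higher over all genes, with a median log2 fold change of -0.33. Mefv and Nlrp1a, among the 9, had at most 3 reads in a GFP library and passed the filter only through Tomato. Nlrp3, the inflammasome sensor, had 1.02, 0.716 and 2.17 CPM in GFP and 9.10, 16.5 and 28.9 CPM in Tomato (-3.79 ± 0.55, SE; edgeR adjusted p = 0.00356), and Mefv, the pyrin gene, stood below 0.1 CPM in each GFP library and at 0.467 to 1.22 CPM in Tomato (-3.74, edgeR adjusted p = 0.0028). The parts downstream of the sensors differed by less: Casp1, the protease that cleaves IL1B and IL18, was at 10.5 ± 1.05 and 19.1 ± 5.07 CPM (-0.86, edgeR adjusted p = 0.0136), the adaptor Pycard at -0.64 (adjusted p = 0.0242) and the pore gene Gsdmd at -0.33 (adjusted p = 0.0279), all 3 named after their values were seen. The Casp1 call was just lost without GFP replicate 3 (0.0501), that of Gsdmd when any 1 library except Tomato replicate 3 was left out (up to 0.102), and that of Pycard when GFP replicate 1 (0.0723), GFP replicate 3 (0.0707) or Tomato replicate 2 (0.0802) was omitted. The length and GC correction also ended all 3 calls: Gsdmd moved to -0.06 (adjusted p = 0.721), Casp1 to -0.47 (0.0584) and Pycard to -0.53 (0.0503). The list held 5 lower calls without GFP replicate 1 or Tomato replicate 2, 4 without GFP replicate 3, and 4 lower and 1 higher with the length and GC correction.

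Few genes of the chain from the receptor to NF-kB passed. Of 30 genes, all tested, 1 was higher and none lower (median log2 fold change 0.10), where 28.9% of all genes were called. The higher gene was Peli2, a ubiquitin ligase that acts on the IRAK kinases (14.0 ± 1.34 against 9.38 ± 2.0 CPM; 0.58, edgeR adjusted p = 0.0347). Leaving out any 1 library except Tomato replicate 1 ended that call (edgeR adjusted p up to 0.110). Scaling by library size left none higher and 1 lower, where 1128 of all genes were higher and 3851 lower. In the paired fit 5 were higher and none lower, where 20.1% of all genes were higher and 20.9% lower. With the length and GC correction added to it 9 were higher and none lower, in a fit that called 39.2% of all genes, 25.9% as higher and 13.4% as lower. Of these the largest fold among the genes not called in the main fit was that of Nfkb1, a subunit of NF-kB, named after its values were seen. Nfkb1 had 90.6 ± 25.2 and 60.3 ± 9.57 CPM (0.59, edgeR adjusted p = 0.0771 in the main fit). It was also called without pairing, by DESeq2 and with GFP replicate 3 left out. The adaptor Myd88 (102 ± 6.23 against 114 ± 6.55 CPM) and the inhibitor genes Nfkbia (1324 ± 96.7 against 1356 ± 52.5 CPM) and Tnfaip3 (757 ± 114 against 724 ± 17.5 CPM), both also targets of NF-kB, did not pass and overlapped between the fractions.

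Genes known to be induced by IL1 in fibroblasts went both ways. Of 30 genes, all tested, 5 were higher in GFP and 4 lower, a share of 30.0% that is near the 28.9% of all genes, with a median log2 fold change of 0.14. Il11, a cytokine of the IL6 family, had 17.5, 16.3 and 21.5 CPM in GFP and 11.5, 8.08 and 11.3 CPM in Tomato (0.84 ± 0.17, SE; edgeR adjusted p = 0.0083), and the hyaluronan synthase gene Has2 was higher by 0.53 (adjusted p = 0.00889). Vcam1, an adhesion molecule for white blood cells, was lower, at 265, 253 and 252 CPM against 389, 385 and 425 CPM (-0.64 ± 0.09, SE; edgeR adjusted p = 0.00178). Csf3, the growth factor of neutrophils, was at 11.8 ± 2.37 and 25.0 ± 8.69 CPM (-1.08, edgeR adjusted p = 0.0192). That call ended with GFP replicate 1 left out (0.0559), with GFP replicate 3 left out (0.0608) and with no filter on low counts (0.0611). The split moved with the fit, as did that of all genes (2049 higher and 2456 lower in the main fit). Scaling by library size alone gave 4 higher and 8 lower, with 1128 and 3851 over all genes. The length and GC correction gave 7 and 2, with 2784 and 1584 over all genes. The paired fit gave 9 and 7, where 20.1% of all genes were higher and 20.9% lower. Pairing and correction together gave 16 and 4, where 25.9% of all genes were higher and 13.4% lower. Without GFP replicate 1 the counts were 3 higher and 1 lower, without GFP replicate 3 they were 4 and 1, and without Tomato replicate 2 they were 2 and 3.

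**Figure D4:**
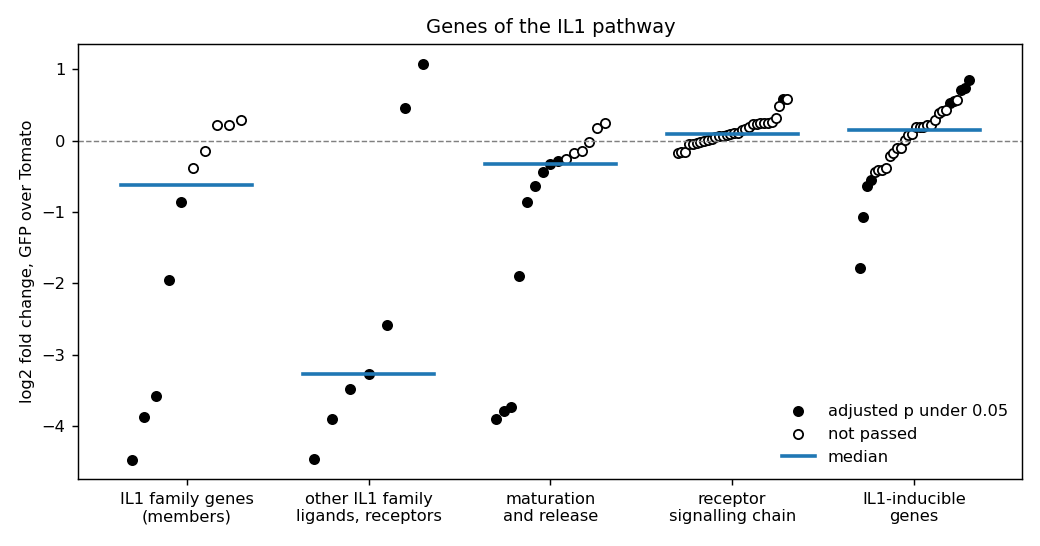
Log2 fold change (GFP over Tomato) of each tested gene in the 10 genes described and in 4 lists of the IL1 pathway, with filled points for an adjusted p under 0.05 and a blue bar for the median of each list. Only genes that passed the filter are shown, 7 of 12 for the other ligands and receptors, and some of these passed it through Tomato alone; the 30 genes of the signalling chain have a median of 0.10.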

How the data were processed

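The authors deposited raw read counts for each gene and library: a column that ignores strand and a column per strand, per the file headers. Trim Galore 0.4.3, STAR 2.5.2b and GRCm38 are named, per the submitters' processing notes, without their roles, and the annotation release is not given in the sources used here. Input was 150 ng of RNA a library, per the labels' protocols. The column that ignores strand was analysed, so reads of genes on opposite strands cannot be told apart. Identifiers were matched to GENCODE M21 of GRCm38 (49412 of 49671, the others holding 0.00762% of counts).

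GFP was compared with Tomato over all 15608 genes that passed filterByExpr, by the two-sided quasi-likelihood test of edgeR 4.0.16 (R 4.3.3), robust, with TMM scaling and no block, and the script was tested on simulated data. Each SE is the log2 fold change divided by the root of its F value. Levels per kilobase use merged exon length. Since nothing says that replicates are separate animals, p-values measure the spread between these libraries, which may be technical. Libraries within a fraction differed by more than counting error (chi-square over its degrees of freedom, 28.0 to 118). Same-numbered GFP and Tomato libraries deviated in the same direction (correlations 0.403, 0.108 and 0.347, against -0.392 to 0.0281 for the other combinations). The numbers were therefore treated as pairs in alternative fits only. The labels do not state such a pairing, and the main fit does not use it. Low counts set the precision: a gene near 0.1 CPM rests on a few reads.

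The members and gene lists were chosen with earlier results of these data known. The rule named the 10 genes, the 2 genes up and 2 down with the smallest adjusted p in each pathway list, and the 3 protein-coding genes with a mean of at least 10 CPM that correlated best with each member (log2 CPM, prior count 2). One of the genes so named is not reported here. Of the marker lists, those of dendritic, endothelial, lymphatic and epithelial cells are described in the closing section. Ccl21a matched 2 identifiers and was left out. Alternatives were 3 other scalings (relative log expression, upper quartile, library size), 2 other filters (none, or 1 CPM in 3 libraries), DESeq2 1.42.0, limma-voom (limma 3.58.1), estimation without robustness, a block for the replicate number, a single strand column, a length and GC correction by splines with 4 degrees of freedom, alone and with the block, and leaving out each library. Start windows came from RefSeq (GRCm38.p6).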

Additional observations from a re-analysis of the deposited data

How the results depend on the processing

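The calls of Il1a, Il1b, Il1rn, Il18 and Il18bp as lower in GFP held under all 18 alternatives, 12 of the fit and 6 that left out a library, with adjusted p of up to 0.0268, 0.0109, 0.00924, 0.00115 and 0.0130. The number of the 10 genes called ran from 5 to 6. Over all genes the median change (log2) moved from 0.00 to -0.16 when scaled by library size alone, and to 0.12 with the length and GC correction. The replicate block changed no call among the 10 genes other than that of Il1rap (-0.38, adjusted p = 0.00921). Genes called in all were 4505, which became 6393 with the replicate block and 6125 with the block and the length and GC correction. When 1 library was left out they ran from 2300 (GFP replicate 1) to 5185 (Tomato replicate 1). For the maturation genes the 9 calls became 5 with the length and GC correction, and 4 to 9 when a library was left out. For the signalling chain the 1 call became 3 with DESeq2, 5 with the replicate block, 2 with a single strand column, 3 with the length and GC correction and 9 with that correction and the block, and 0 to 2 when a library was left out. For the IL1-inducible genes the 9 calls became 16 with the replicate block, 20 with the correction and the block, and 4 to 12 when a library was left out. The ratio of Il18bp to Il18 moved from 1.09 to 0.911 (log2) with a single strand column. The causes were not tested. Fewer libraries also lower the power of each test that leaves one out, and genes under 1 CPM, such as Mefv and Il18r1 in GFP, rest on few reads.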

Other observations

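Markers of further cell types were set beside the IL1 family as values only. Of 8 dendritic cell markers 4 were tested, of which 3 were lower in GFP, and the list summed to 27.4 to 28.6 CPM in GFP and 49.2 to 74.5 CPM in Tomato. Of 10 epithelial and cancer cell markers 9 were tested, of which 5 were lower and none higher, with sums of 73.6 to 93.4 CPM against 159 to 219 CPM. Among 6 markers of lymphatic endothelium 5 were higher in GFP with none lower, and of 12 endothelial markers 7 were higher and none lower, with sums of 174 to 243 CPM in GFP against 80.5 to 110 CPM in Tomato for the latter. Over all genes tested 13.1% were higher in GFP and 15.7% lower. Among the T cell markers Cd3e, the T cell receptor subunit gene, reached at most 0.36 CPM in any library. Of 8 mast cell markers 1 was tested and it did not pass.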
